A study of Pimephales promelas with 12 samples.

Results

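Contigs nearly restricted to liver were selected from RNA-seq counts of adult male fathead minnows, a small cyprinid fish used in toxicity testing. A contig is an assembled or single transcript sequence to which reads were assigned. The rule asked for 50 counts or more as the mean of the 3 liver libraries and at most 5 counts in each of the 9 other libraries. It found 68 of 46309 contigs. The mirrored rules found 93 contigs for gut, 5 for hypothalamus and 6 for telencephalon.

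The libraries came from liver, gut, hypothalamus and telencephalon, with 3 libraries per tissue. The fish were adult males from an in-house culture, the labels name no treatment, and all groups shared this background. Kidney, gonad, heart and gill were not among the tissues, so restriction means low counts in gut and in these brain regions only. Each library is a whole tissue piece, in which more RNA per cell and more cells of a type cannot be told apart.

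The liver makes most proteins of blood plasma, among them albumin-like carriers, transferrin, fibrinogen and other clotting factors, complement components and apolipoproteins. It also makes bile acids, stores glycogen, and carries out detoxification. In egg-laying fish the liver of females makes vitellogenin, the egg yolk precursor, under the control of estrogen. The files name sequences and not genes. A database identifier of a sequence record stands in 11230 of the names. The reference table for this species lists its 64593 genes under other kinds of identifier, so the 0 matches were fixed in advance. They do not mean that these sequences belong to no known gene. The contig names are not gene symbols, so none of the 43 marker symbols for liver, gut, pancreas, blood and brain could be among them. The label of liver could therefore not be checked against marker genes. No role can be given to a member, and its letters are not printed since the files hold none.

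Liver libraries held 14546298 to 16721570 counts, gut libraries 19301093 to 20801155, hypothalamus libraries 18845704 to 22589095 and telencephalon libraries 17729942 to 21463583. Levels are CPM, the usual depth-normalized count, with library sizes scaled by TMM, a factor that corrects for a few very abundant transcripts. On this scale 3 counts stood for 0.291 to 0.302 CPM in liver, 0.157 to 0.167 CPM in gut, 0.102 to 0.121 CPM in hypothalamus and 0.109 to 0.131 CPM in telencephalon. The TMM factors of liver were 0.617 to 0.683.

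The members together held 19232, 20628 and 19489 counts in the liver libraries of replicates 1, 2 and 3. In the same order they held 66, 47 and 81 counts in gut, 65, 50 and 61 in hypothalamus, and 45, 43 and 32 in telencephalon. Their summed level was 1960 ± 41.6 CPM in liver (SD, n = 3), against 3.54 ± 1.01 CPM in gut, 2.21 ± 0.248 CPM in hypothalamus and 1.54 ± 0.127 CPM in telencephalon. These counts chose the members, so the gap is a description with no test. The set took 0.122% to 0.134% of all liver counts, so it is a small part of what the liver libraries held. Its sum was nearly even across the liver libraries, which many single members were not.

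**Figure D1:**
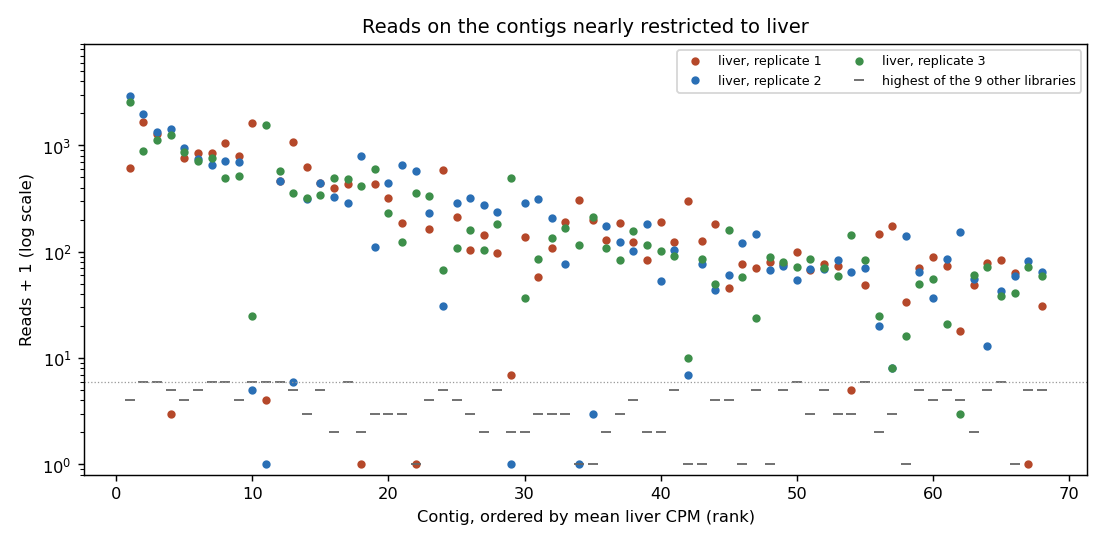
Counts plus 1 on a log axis for the 68 contigs nearly restricted to liver, ordered by mean CPM in liver. Coloured points are the 3 liver libraries, the short bars are the highest of the 9 other libraries, and the dotted line marks 5 counts. The 3 liver points lie close together in some contigs and far apart in others, and 12 contigs have a liver library at or below 5 counts and another at or above 50.

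The highest member was FHM_All_PTA_Assem.21544.C2, a contig of the Paracel transcript assembly. It had 619, 2897 and 2569 counts in the liver libraries and 15 counts in all other libraries together. Its liver level was 201 ± 121 CPM (SD, n = 3), with replicate 1 well below the others. Pooled over libraries, its counts per TMM-scaled library size were 2847 times as high in liver as elsewhere. The rule chose the member by these counts, and pooling hides the spread between liver libraries, so the ratio is a description only.

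Singlet_1558, a sequence that the assembler left on its own, had 1658, 1988 and 890 liver counts and 20 counts elsewhere. FHM_All_PTA_Assem.23387.C1 had 1271, 1342 and 1123 liver counts and also 20 elsewhere, at 123 ± 9 CPM in liver. FHM_All_PTA_Assem.565.CB2 had 768, 951 and 867 liver counts and 8 elsewhere, at 85.4 ± 8.02 CPM in liver. FHM_All_PTA_Assem.23387.C1 and FHM_All_PTA_Assem.565.CB2 were even across the 3 fish.

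Singlet_4948_R had 854, 737 and 712 liver counts, with 14 elsewhere. Singlet_601_R had 1064, 709 and 491 liver counts, with 15 elsewhere. Singlet_9550_R had 795, 696 and 511 liver counts, with 14 elsewhere. In each of these, replicate 1 had the most counts and replicate 3 the fewest.

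Among the 5 PacBio isoforms, sequences built from clustered long reads whose names carry their length, c2365/f11p1/1092 was highest. It had 855, 648 and 765 liver counts and 17 elsewhere. Per kilobase of length, its level in liver was 68.7 CPM. The other isoforms had 10.9 (c2226/f2p2/801), 7.86 (c22598/f1p0/783), 5.54 (c15313/f2p0/962) and 3.88 CPM per kilobase (c17634/f1p0/1896). Lengths of the other members were not used here, so their levels are not ranked against each other per length.

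At the low end of the liver limit, FHM_All_PTA_Assem.6189.C2 had 30, 63 and 58 liver counts. FHM_All_PTA_Assem.361.C4 had 0, 81 and 71, and Singlet_12019 had 62, 58 and 40. Just below the limit lay c8358/f1p0/4272 with 0, 60 and 88 liver counts and Singlet_2127 with 67, 38 and 33. Between these stood an expressed sequence tag with 7, 11 and 130 liver counts. The contigs on both sides of the limit are alike in level, and 11 contigs had a liver mean of 40 to 50 counts while keeping the other limit.

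The limit of 5 counts cut in a different place. FHM_All_PTA_Assem.5091.C1, with 82, 42 and 37 liver counts, reached 5 counts in another library and stayed in, as did Singlet_1558 and FHM_All_PTA_Assem.23387.C1. Just outside, with a highest count of 6, lay FHM_All_PTA_Assem.3184.C1 with 4651, 5575 and 0 liver counts. Also outside were Singlet_6302 with 2080, 1581 and 1896 and Singlet_44985 with 1224, 1353 and 1620 liver counts. In all, 12 contigs had a highest count of 6, and 66 had one of 6 to 10. The 3 named outside were the most abundant of the 12, whereas the 3 named inside were picked by their counts outside liver. Their levels are therefore not a fair contrast. FHM_All_PTA_Assem.3184.C1, right outside, had a liver mean of 3409 counts, above the 2028 of the highest member.

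FHM_All_PTA_Assem.3166.C2, with 5237, 4525 and 1890 liver counts, had at most 9 counts elsewhere, and its raw mean in liver was 1748 times that of the other libraries. FHM_All_PTA_Assem.23581.C1, with 4875, 353 and 1315 liver counts, reached 12 counts elsewhere at a ratio of 1402. FHM_All_PTA_Assem.3184.C1 stood at 1334, Singlet_3082 (2981, 1362 and 1350 liver counts) at 1314 and Singlet_14868 (4887, 1606 and 2499) at 1285. All of these are ratios of raw means. The ratio given above for the highest member used TMM-scaled library sizes, so it is on another scale and cannot be ranked against them.

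The share of contigs that kept the limit was 0.686% at a liver mean of 50 to 100 counts (26 of 3791), 0.398% at 100 to 300 (20 of 5021), 0.563% at 300 to 1000 (19 of 3373) and 0.246% at 1000 to 3000 (3 of 1220). None of the 419 contigs at 3000 to 10000 counts and none of the 175 above kept it. The share with a liver mean of at least 100 times the mean of the other libraries went the other way, with 0.369% in the lowest of these levels, 3.53% at 1000 to 3000, 15% at 3000 to 10000 and 28.6% above 10000. A fixed limit in counts thus took members from the lower and middle levels, and the most abundant liver contigs are not among them.

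**Figure D2:**
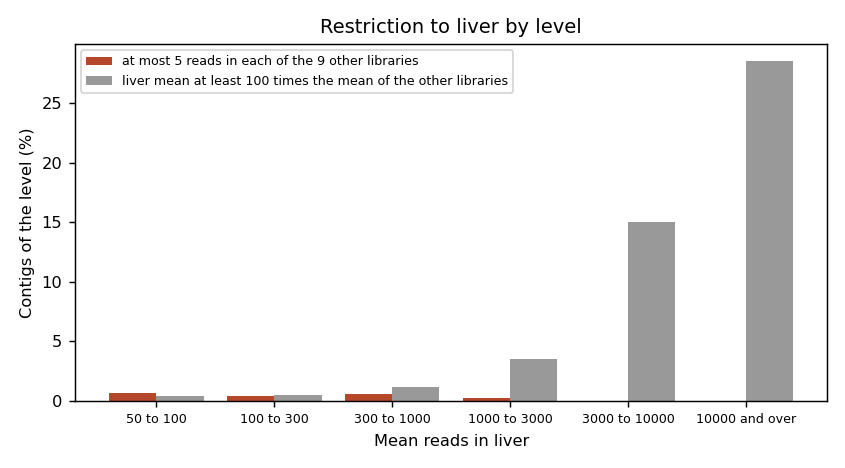
Percent of contigs at each level of the liver mean (counts) that kept the limit of 5 counts in each other library (red), and percent with a liver mean at least 100 times the mean of the other libraries (grey). The red bars reach at most 0.686% and are absent above 3000 counts, whereas the grey bars reach 28.6%.

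Outside liver the members were low but seldom without a count. In 9 members all other libraries were at 0, in 16 they held 1 to 3 counts together, and in 43 more than 3. The median over the members was 6 counts over the 9 libraries, and 27 had a count in each of the 3 other tissues. An expressed sequence tag with 72, 84 and 20 liver counts had the most, with 23 counts. The rule capped these counts, so they are given as a description.

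The highest members with 0 counts in all other libraries were Singlet_15337_R, FHM_All_PTA_Assem.788.C1, Singlet_56071, FHM_All_PTA_Assem.958.C3 and Singlet_639_R. Singlet_15337_R had 0, 579 and 356 liver counts, and Singlet_639_R had 124, 76 and 84. Liver counts were pooled and set against a floor of 3 counts over the other libraries together. On that basis Singlet_15337_R was at least 2188-fold higher in liver and Singlet_639_R at least 664-fold higher. The bounds describe pooled counts only, since Singlet_15337_R had 0 counts in the liver of replicate 1. These members were not detected elsewhere at this depth.

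Members and liver contigs at large differed in the shares of single sequences and assembled contigs. Of the 68, 26 (38.2%) were Paracel assembly contigs, 27 (39.7%) single sequences, 9 (13.2%) expressed sequence tags and 5 (7.35%) PacBio isoforms, and 1 had another kind of name, Contig10913. Among all 13999 contigs with a liver mean of at least 50 counts, 70.3% were Paracel contigs, 8.67% single sequences, 12.2% expressed sequence tags and 8.3% PacBio isoforms. The gut-restricted contigs had 40.9% Paracel contigs, 18.3% single sequences and 29% PacBio isoforms. Single sequences thus took a larger share of the members than of liver contigs at large and Paracel contigs a smaller one, while tags and isoforms had similar shares, as a description without a test.

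The 3 liver libraries differed more on the members than on other contigs. The coefficient of variation (CV, the SD as a percent of the mean) over the liver libraries had a median of 42.6% in the members (quartiles 22.2% and 86.7%). Over the 13931 other contigs with a liver mean of at least 50 counts, it was 22% (quartiles 12.9% and 37%). The rule used the mean over these libraries but not their spread. No test was made, since the members share 3 libraries.

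The gap was present at each level. At 50 to 100 counts the median CV was 40.8% in members and 28% in the others, at 100 to 300 it was 45.8% and 21.7%, and at 300 to 1000 it was 38.5% and 18.3%. At 1000 to 3000 counts, with 3 members, it was 35.8% and 17.2%. It was widest at 100 to 300 counts and narrowest at 50 to 100.

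By kind of sequence, Paracel members had a median CV of 61.1%, against 20.5% in other liver contigs of that kind. Single sequences differed least, at 27.9% in members and 25.4% in the others. Expressed sequence tags stood at 49% and 25.5%, and PacBio isoforms at 67.9% and 26.9%. The gut-restricted contigs, measured over the gut libraries, had a median CV of 40.8%, so a wide spread is not particular to the liver set.

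**Figure D3:**
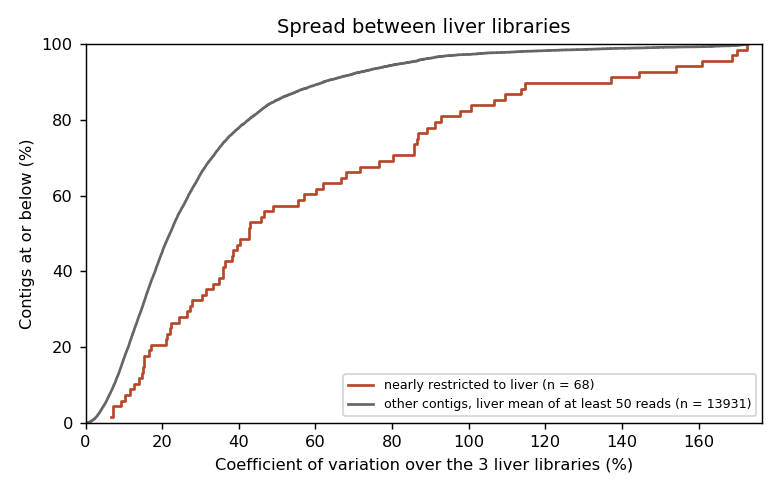
Cumulative percent of contigs by coefficient of variation over the 3 liver libraries, for the 68 contigs nearly restricted to liver (red) and 13931 other contigs with a liver mean of at least 50 counts (grey). The red line lies to the right throughout, with medians of 42.6% and 22%.

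Some members were even in all 3 fish. Singlet_3742_R had 75, 73 and 80 liver counts and a CV of 6.54%, the lowest of the set. Singlet_409 had 76, 68 and 69 liver counts and a CV of 7.06%. FHM_All_PTA_Assem.23387.C1 came next at 7.29%. In all, 14 members had a CV below 20%, 25 one of 20% to 50%, 17 one of 50% to 100% and 12 one above 100%.

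In 12 members (17.6%) a liver library held at most 5 counts while another held at least 50, which was so for 227 (1.63%) of the other liver contigs. In the gut libraries 17 of the 93 gut-restricted contigs (18.3%) did the same. By level of the liver mean, the share was 11.5% of members and 2.98% of the other contigs at 50 to 100 counts, 15% and 1.38% at 100 to 300, and 31.6% and 0.895% at 300 to 1000. At 1000 to 3000 counts it was 0 of 3 members and 0.986% of the others. The pattern was described after the values had been seen.

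Singlet_12139_R had the highest CV, 173%, with 3, 0 and 1563 liver counts. FHM_All_PTA_Assem.268.CB1 had 6, 0 and 497, and a CV of 170%. FHM_All_PTA_Assem.3416.C2 had 1620, 4 and 24, and a CV of 169%. Each of these rested on 1 fish, replicate 3 for the first pair and replicate 1 for the last.

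FHM_All_PTA_Assem.361.C6 had 2, 1421 and 1261 liver counts, at 88.3 ± 76.5 CPM in liver. Singlet_16086 had 0, 803 and 413, and Singlet_15337_R had 0, 579 and 356. Singlet_7284_R had 1084, 5 and 358, with 13 counts elsewhere. These 4 were high in the liver of 2 fish and nearly without counts in the liver of the other.

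FHM_All_PTA_Assem.788.C1 had 306, 0 and 116 liver counts, and Singlet_56071 had 196, 2 and 212. FHM_All_PTA_Assem.3267.C3 had 4, 64 and 143. FHM_All_PTA_Assem.24727.C1 had 17, 154 and 2, and FHM_All_PTA_Assem.361.C4 had 0, 81 and 71. Replicate 1 was at or below 5 counts in 6 of the 12 members, replicate 2 in 6 and replicate 3 in 1. No single liver library was low throughout, and the highest library was replicate 1 in 26 members, replicate 2 in 26 and replicate 3 in 16. These are 38.2%, 38.2% and 23.5% of the members. In the 13931 other liver contigs the shares were near these, at 33.7%, 36.8% and 29.5%.

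The replicate numbers were read as fish, since 3 individual males were used and same-numbered libraries of different tissues deviated together. The labels give replicate numbers and name no fish, so a difference between fish here means one between replicate numbers. In the 9 other libraries, the fish with a low liver library held 12 counts over 39 pairs of a member and a library, or 0.308 per pair. The fish with high liver libraries held 48 counts over 60 such pairs, or 0.8 per pair, and 13 of the 48 were of Singlet_7284_R. The low fish had fewer counts per pair in 7 of the 12 members and more in 1, FHM_All_PTA_Assem.361.C4. FHM_All_PTA_Assem.3267.C3 was equal in both, and 3 had no count in either. The same libraries recur over the members, and the rule capped their counts at 5. These are very few counts and were not tested.

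The name of a Paracel contig carries a cluster number, read here as the group of similar sequences from which the assembler built it. The 26 Paracel members lay in 25 clusters, of which 22 held other contigs. Of these other contigs, 52 in all, 49 were tested in edgeR's quasi-likelihood fits of liver against each other tissue. They had failed the rule, 38 with more than 5 counts in a library outside liver and the other 14 with a liver mean under 50. Their clusters were chosen through members' counts in the same libraries.

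Against gut, 23 of the 49 (46.9%) were higher in liver, where 9.01% of all 42878 contigs tested were. Against hypothalamus it was 28 (57.1%), where 11.5% of all contigs were. Against telencephalon it was 29 (59.2%), where 16.6% of all contigs were. Lower in liver were 0, 1 and 1 of them in these comparisons, which share the liver libraries. Over all 42878 contigs tested, 4611, 7928 and 9510 were lower in liver, in the same order. Of the 49, 10 entered the test only through their liver counts, so any difference they showed had to be higher in liver. In the other 39, 17 (43.6%) were higher than in gut, 21 (53.8%) than in hypothalamus and 22 (56.4%) than in telencephalon. The median log2 fold change of these 39 was 1.88 against gut, 3.62 against hypothalamus and 3.56 against telencephalon. Over all contigs that passed the filter in a tissue other than liver it was -0.05, -0.31 and -0.21.

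In 22 of the 49 (44.9%), from 17 clusters, the level was higher in liver than in each other tissue, against 5.6% of all contigs tested. Of these 22, 6 had entered the test only through liver, and 5 of them had 0 counts in all other libraries. Among the 39 contigs that passed the filter elsewhere, 16 (41%) were higher in liver than in each other tissue, against 5.43% of all such contigs, as counted after seeing the data. With edgeR's own filter, which can still admit a contig through liver alone, 16 of the 22 were called, beside 2721 over all contigs. Among the 9489 tested contigs that share a cluster number with another, 6.51% were higher in liver than in each other tissue in the main fits. The count of 22 fell to 14 when all libraries of replicate 2, or all of replicate 3, were left out. Over all contigs tested, the count fell from 2400 to 1098 without replicate 2 and to 1359 without replicate 3. A further 19 of the 49 were called higher in liver in none of the comparisons. Some contigs beside a member that passed the filter elsewhere were thus called higher in liver too, and others were not called. With 3 libraries per tissue, a contig that was not called is not shown to be level between tissues.

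The most abundant of them was FHM_All_PTA_Assem.3.CB1, with 10636, 15456 and 6133 liver counts. It had 22, 4 and 22 counts in gut, 2, 15 and 6 in hypothalamus and 4, 5 and 1 in telencephalon. Its log2 fold change was 10.27 against gut (edgeR adjusted p = 0.000193). The member of that cluster, FHM_All_PTA_Assem.3.C1, had 430, 109 and 602 liver counts, 0.697% to 6.22% of the cluster's liver counts. The member thus held a small share of its cluster's liver reads.

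FHM_All_PTA_Assem.3913.C1 had 9309, 10123 and 10370 liver counts, and up to 100 counts in a hypothalamus library. FHM_All_PTA_Assem.3245.C1 had 4272, 4873 and 3843 in liver and 22 to 184 in the other libraries. FHM_All_PTA_Assem.3275.C3 had 3349, 3403 and 4205, and FHM_All_PTA_Assem.3276.C1 had 2373, 4490 and 2037. All of these were called higher in liver than in each other tissue.

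FHM_All_PTA_Assem.21868.C3 had 7311, 1557 and 2177 liver counts, and FHM_All_PTA_Assem.3267.C1 had 814, 809 and 9588. Both were also higher in liver than in each other tissue, with 1 fish far above the others. The members of their clusters were highest in the same fish, with 589, 30 and 66 in FHM_All_PTA_Assem.21868.C2 and 4, 64 and 143 in FHM_All_PTA_Assem.3267.C3.

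Cluster 565 joined contigs of different distribution. Its member FHM_All_PTA_Assem.565.CB2 was described above. FHM_All_PTA_Assem.565.C14 had 2807, 2197 and 2788 liver counts, at most 19 in gut and 0 in every telencephalon library. FHM_All_PTA_Assem.565.C2 had 3268, 1810 and 1094 counts in liver and 4801, 3265 and 3349 in gut, with a log2 fold change of 0.03 against gut (edgeR adjusted p = 1). Restriction of a contig was not restriction of its cluster here.

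When the counts of all contigs in a cluster were summed, 6 of the 26 Paracel members stayed within the rule, 3 of them alone in their cluster. The others were FHM_All_PTA_Assem.21194.C1, FHM_All_PTA_Assem.5091.C1 and FHM_All_PTA_Assem.958.C3. In the 23 members of shared clusters, the member's share of its cluster's liver counts changed by at least 2-fold between liver libraries in 14. Its median over members was 3.89% in each member's own lowest library and 34.7% in its own highest, which differ by construction. In these 14 members the split of the cluster's reads thus changed between fish. Some of the shares rest on few reads, as in cluster 268 with 6 and 7 liver counts in replicates 1 and 2. The change in share was not computed for other clusters.

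Several such splits are given here as examples picked by their values. In cluster 3416 the member C2 had 1620, 4 and 24 liver counts, whereas FHM_All_PTA_Assem.3416.C1 had 896, 2219 and 1757. The cluster's liver sum was 2516, 2223 and 1781, with a CV of 16.6% beside 169% in the member. In cluster 21544 the member C2 had 619, 2897 and 2569, and FHM_All_PTA_Assem.21544.C1 had 2298, 1596 and 1381. In both clusters the rank of the contigs in replicate 1 was the reverse of that in the other fish.

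In cluster 788 the member C1 had 306, 0 and 116 liver counts, and FHM_All_PTA_Assem.788.C3 had 1, 94 and 471. Outside liver, C3 was counted only in replicate 3, at 9 in gut, 5 in hypothalamus and 11 in telencephalon. In cluster 3237 the member C3 had 186, 657 and 122 liver counts. FHM_All_PTA_Assem.3237.C4 moved alongside it, with 2671, 5596 and 760. FHM_All_PTA_Assem.3237.C2 did not, with 345, 5 and 7.

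**Figure D4:**
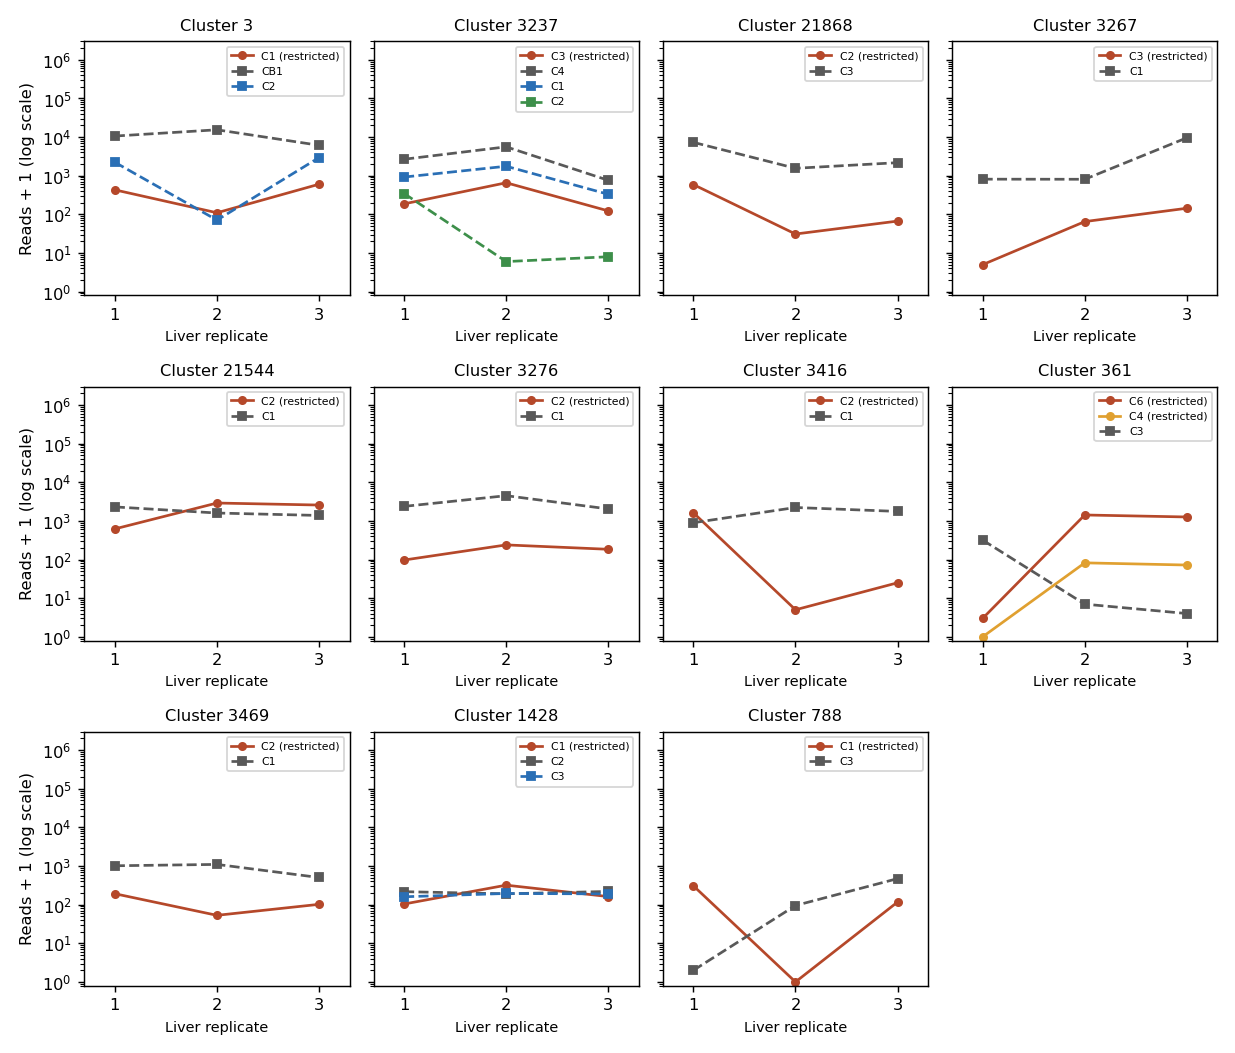
Counts plus 1 on a log axis in the 3 liver libraries, for the 11 clusters in which the share of a contig nearly restricted to liver changed by at least 2-fold and another contig had a liver mean of at least 50 counts. Circles on solid lines are contigs nearly restricted to liver, squares on dashed lines are other contigs of the cluster, and lines join the points of a contig without implying an order of the fish. In clusters 21544, 3416, 788 and 361 contigs change rank between replicate 1 and the other replicates. In clusters 1428 and 3 contigs change rank between replicate 2 and the other replicates. In cluster 3237 C3, C4 and C1 run together while C2 is high only in replicate 1.

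A model of tissue and replicate number in edgeR tested the other contigs of these clusters for a difference between fish. It was added after seeing the data. The difference it tests is shared over the tissues in the model and need not be present in each of them. Over the 12 libraries 7 of the 49 (14.3%) differed, against 6.95% of all contigs tested. Over the 9 libraries without liver, which chose no member by a high value, 6 (12.2%) differed, against 5.26% of all contigs. Among all contigs that share a cluster number the shares were 13.3% and 10.5%. The count in the members' clusters was close to that of other clustered contigs, and the 6 came from 3 clusters.

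The clearest was FHM_All_PTA_Assem.361.C3, with 317, 6 and 3 counts in liver. It had 527, 9 and 11 in gut, 1173, 14 and 28 in hypothalamus and 845, 26 and 16 in telencephalon. It was high in replicate 1 in every tissue (edgeR adjusted p = 2.57e-05 over the libraries without liver). The members of its cluster, C6 and C4, had 2 and 0 counts in the liver of that fish and were high in the liver of the other fish. They were the only members to share a cluster.

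FHM_All_PTA_Assem.3237.C2 had 2510, 69 and 74 counts in hypothalamus and 1731, 9 and 14 in telencephalon, again high in replicate 1 (edgeR adjusted p = 0.00148 over the libraries without liver). FHM_All_PTA_Assem.3237.C4 had 1222, 38 and 28 in hypothalamus and 914, 7 and 9 in telencephalon (edgeR adjusted p = 0.000257). In liver, where replicate 2 was highest, C4 did not follow that order. Gut held few counts of either contig, with 4, 0 and 3 of C2 and 6, 0 and 1 of C4. FHM_All_PTA_Assem.361.C7, FHM_All_PTA_Assem.361.C9 and FHM_All_PTA_Assem.268.C5 had edgeR adjusted p of 0.0244, 0.0451 and 0.0183 over the libraries without liver.

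**Figure D5:**
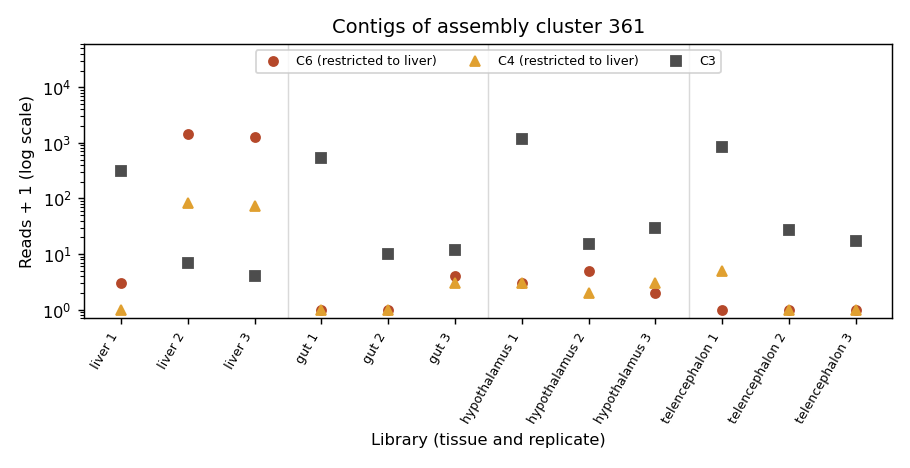
Counts plus 1 on a log axis in all 12 libraries for 3 contigs of cluster 361. C6 and C4, nearly restricted to liver, are high only in liver replicates 2 and 3, and C3 is high in replicate 1 of every tissue, from 317 counts in liver to 1173 in hypothalamus.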

How the data were processed

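The 12 libraries, made from RNA of 4 tissues of adult male fathead minnows, were grouped by tissue and replicate number from the sample titles. The deposited values are whole-number read counts per contig, not normalized. The authors trimmed reads with Cutadapt, aligned them by bowtie 2, left out likely PCR duplicates and reads mapping to several places, and counted the rest with in-house scripts. Tool versions are not given in the sources used. The methods name both the consensus transcriptome and zebrafish sequences as mapping target. Keeping uniquely mapped reads can lower contigs that share sequence, and contigs of a cluster can divide the reads of a gene.

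Contigs absent from a list were set to 0. The 3 comparisons of liver with each other tissue were fitted apart in R 4.3.3 with edgeR 4.0.16 (quasi-likelihood test, TMM, Benjamini-Hochberg, threshold 0.05), over the 42878 contigs seen (1 count or more) in 2 or more replicates of any tissue. The members were chosen from these counts and got no test. Members, lists and tests were chosen with earlier results of these data known. Named contigs are the 10 highest members, those with the 3 highest and 3 lowest CV, those beside each limit, members that share a cluster, the 10 highest other contigs of the clusters, the 5 highest that miss only the limit of 5 counts and the 5 highest members at 0 elsewhere; all other named contigs were chosen after their values were seen. The floor of 3 counts covers counting error only, since no molecular identifiers are named and reads need not be separate molecules.

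To check whether replicate numbers pair the libraries, deviations from the tissue means were correlated over 25918 contigs between tissues. All 18 correlations of the same number were above 0.1 (0.191 to 0.833), and 3 individual males were used, so the numbers were read as fish. The highest was that of hypothalamus with telencephalon in replicate 1, beside 0.321 and 0.411 in replicates 2 and 3. Between replicates of a tissue the chi-square per degree of freedom was 18.3 to 106, so no pair differed by as little as a library deposited more than once would. In simulated data with known changes, the pairwise test and the test between replicate numbers found changed contigs. The pairwise test made 128 calls, 10 of them false, and left many changed contigs uncalled. The test between replicate numbers made 221 calls, 23 of them false. In both, a larger share of the calls was false than the threshold of 0.05 names. DESeq2 1.42.0, edgeR's exact test, other scalings and filters, a single fit, the replicate block and leaving out libraries served as alternatives.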

Additional observations from a re-analysis of the deposited data

How the results depend on the processing

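The number of contigs nearly restricted to liver, 68, was 42 with a liver mean of at least 100 counts, 38 with 50 counts in every liver library, 134 with up to 10 counts elsewhere and 9 with 0 elsewhere. It ranged from 61 to 92 when 1 library was left out, highest without gut replicate 1. With counts scaled by TMM to a common depth it was 101, of which 61 were shared, and with clusters summed it was 48. The 22 other contigs of the clusters higher in liver than in each tissue were 14 to 22 when replicates or libraries were left out. They were 24 with edgeR's exact test, 22 with DESeq2 and 16 with edgeR's own filter. Over all contigs, with 2400 in the main fits, the counts were 1098 to 2454, then 2587, 3151 and 2721, in the same order. With the replicate number as a block the cluster contigs were also 22, of which 20 were shared, beside 2952 over all contigs. The block moved no count of calls by over 1.5 times. The 8473 contigs that differed between liver and gut were 5320 to 7502 when 1 library was left out, lowest without gut replicate 2.

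Scaling by library size alone moved the median log2 fold change of all contigs to -0.60 against gut, -1.28 against hypothalamus and -1.31 against telencephalon. The share of calls higher in liver was then 22.4%, 16.3% and 16.4%, in place of 45.6%, 38.4% and 42.9%, and 1387 contigs, in place of 2400, were higher than in each tissue. Of the 49 cluster contigs 20 still were. Liver levels in CPM were 0.637 to 0.682 of the values given. The median CV of the members was 41.6% with that scaling and 29.9% to 45.6% without 1 liver library. With library size alone, replicate 1 was the highest in 27 members, replicate 2 in 20 and replicate 3 in 21. The count of cluster contigs that differed between fish was 5 to 9 over its alternatives. Over all contigs, with 2982 in the main fit, the count was 2019 to 4080.

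With 3 libraries per tissue and members at 50 counts or more in liver, the depth cannot separate absence from fewer than about 3 counts in a library.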
